A study of Homo sapiens with 6 samples.

Results

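Endoplasmic reticulum (ER) chaperones and the transcription factor XBP1 were followed here in MV4-11, an established acute myeloid leukaemia line with an internal tandem duplication of FLT3. The set was defined by symbol as 10 genes of the ATF6 and XBP1 branches of the unfolded protein response, and all 10 were found among the 23698 gene rows of the deposited tables. Poly(A) RNA was sequenced from cells carrying a stable lentiviral hairpin against PRMT5, which encodes the principal symmetric arginine methyltransferase (knockdown, 3 libraries), and from cells carrying a scrambled vector (control, 3 libraries). Both groups therefore carry a lentiviral vector and were grown in the same medium with serum. How many clones or hairpins were used is not given in the sources used here, and nothing in the labels says that replicates were separate cultures, so the p-values reflect the scatter of these samples alone, and that scatter may be technical.

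The ER lumen is where secreted and membrane proteins fold. When unfolded chains accumulate there, the chaperone HSPA5 leaves the stress sensors: ATF6 travels to the Golgi and is cut into a transcription factor, while the nuclease IRE1 (gene ERN1) splices XBP1 mRNA into the form that encodes the active factor. Both factors act on chaperone, oxidoreductase and degradation genes through ER stress response elements (ERSE), which pair a CCAAT box, bound by the factor NF-Y, with a CCACG box. Myeloid cells make granule and surface proteins through this route. Gene counts do not separate spliced from unspliced XBP1 mRNA, so the splicing step was not measured.

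The elements themselves are shown first. The genes were picked by symbol and not by sequence, but as known genes of branches that act through these elements, so the frequency of the elements among them is a description and not independent of that choice. RefSeq promoter windows (build GRCh38.p14, 250 bases before to 50 after each annotated start) were at hand for 9 of the 10 genes, PDIA3 being the one without. An exact match to the ERSE consensus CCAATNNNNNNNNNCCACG on either strand was found for HSPA5, HSP90B1, CALR, PDIA6 and XBP1, 5 of the 9. PDIA4, PDIA6 and XBP1 each had windows at more than a single annotated start. For PDIA6 and XBP1 the match lay at a single start, and the other window held no ERSE. Among all 27305 genes with a window, 25 had a match (0.0916%). The shorter ERSE-II consensus ATTGGNCCACG matched in SDF2L1 and HERPUD1, and in 19 of the 27305 genes (0.0696%). PDIA4 and DNAJB9 had neither, although each held CCACG and CCAAT apart, as 42.1% and 39.7% of all genes did. The unfolded protein response element TGACGTGG matched in none of the 9 and in 0.927% of all genes. The matched elements, written on the motif's own strand with both boxes in capitals and with the distance of the window's first matched base from the annotated start, were as follows.
HSPA5, 66 bases before the start: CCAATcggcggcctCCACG
HSP90B1, 194 bases before the start: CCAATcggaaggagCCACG
HSP90B1, 89 bases before the start, opposite strand: CCAATcgcgccgcaCCACG
CALR, 225 bases before the start, opposite strand: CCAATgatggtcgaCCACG
PDIA6, 86 bases before the start: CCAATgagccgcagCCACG
XBP1, 52 bases before the start: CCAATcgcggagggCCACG
HERPUD1, 117 bases before the start: ATTGGgCCACG
SDF2L1, 188 bases before the start, opposite strand: ATTGGtCCACG
HSP90B1 was the member with a pair of matches, and the spacers between the boxes differed between genes. A match is a description of letters and does not show that a factor was bound.

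Promoters of 4 genes give the context for the genes on which the expression results turn: HSPA5 and XBP1 with an ERSE, HERPUD1 with an ERSE-II, and DNAJB9 with neither. Each run is the 250 bases before the annotated start on the gene's own strand, for XBP1 the start with the match. Capitals mark both boxes of the matched element, and in DNAJB9 every CCACG on either strand.
HSPA5, chr9:125241344-125241593, minus strand: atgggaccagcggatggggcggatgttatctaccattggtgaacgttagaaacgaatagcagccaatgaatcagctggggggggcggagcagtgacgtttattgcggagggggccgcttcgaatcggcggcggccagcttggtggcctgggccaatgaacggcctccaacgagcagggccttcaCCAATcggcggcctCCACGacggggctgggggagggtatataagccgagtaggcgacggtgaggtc
XBP1, chr22:28800570-28800819, minus strand: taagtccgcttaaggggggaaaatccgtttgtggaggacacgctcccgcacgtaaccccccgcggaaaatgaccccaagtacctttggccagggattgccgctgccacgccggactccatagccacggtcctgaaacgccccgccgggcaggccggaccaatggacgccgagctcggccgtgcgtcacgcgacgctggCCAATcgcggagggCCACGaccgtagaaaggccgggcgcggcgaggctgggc
HERPUD1, chr16:56931892-56932141, plus strand: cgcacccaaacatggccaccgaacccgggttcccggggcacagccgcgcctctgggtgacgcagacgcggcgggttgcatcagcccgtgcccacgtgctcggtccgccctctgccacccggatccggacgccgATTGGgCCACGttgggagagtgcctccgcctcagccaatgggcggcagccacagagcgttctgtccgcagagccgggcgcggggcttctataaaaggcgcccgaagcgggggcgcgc
DNAJB9, chr7:108569624-108569873, plus strand: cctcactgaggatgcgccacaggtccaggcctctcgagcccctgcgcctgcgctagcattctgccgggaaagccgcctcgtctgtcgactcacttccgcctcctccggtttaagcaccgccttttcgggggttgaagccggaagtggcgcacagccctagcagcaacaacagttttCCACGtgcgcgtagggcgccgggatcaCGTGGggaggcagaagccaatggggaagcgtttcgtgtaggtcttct
HSPA5, XBP1 and HERPUD1 carry their complete element within the 250 bases, whereas the 2 CCACG boxes of DNAJB9, on opposite strands, have no CCAAT at the ERSE spacing.

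The libraries held 16408484 to 19077106 estimated counts, and 13668 genes entered the test. PRMT5, the targeted gene, was at 103, 71.6 and 53.0 CPM (counts scaled to depth after TMM adjustment) in knockdown 1, 2 and 3. In the libraries labelled scrambled control 1, 2 and 3 it was at 133, 53.2 and 158 CPM, so PRMT5 in the library labelled scrambled control 2 lay at the knockdown level and goes against its label. Its log2 difference (knockdown minus control) was −0.60 (SE 0.43) with all libraries and −0.94 without that library. Across genes, log2 CPM of the library labelled scrambled control 2 correlated with the other 5 libraries at 0.876 to 0.923, whereas those 5 correlated with one another at 0.952 to 0.995. The log2 differences below are therefore given with and without it, and runs of 3 values follow the library numbers 1, 2 and 3. Of 12 myeloid markers, 9 averaged at least 5 CPM and 3 (CD14, CD34 and KIT) under 1 CPM. The 12 summed to 1803 to 2641 CPM over the knockdown and to 1658 to 2504 CPM over the control libraries. Single markers varied widely: LYZ was at 35.3 to 1268 CPM and MPO at 13.8 to 503 CPM. Both were lowest in the library labelled scrambled control 2. Plasma cells, which make much XBP1, left little trace: 9 of 11 B and plasma cell markers averaged under 1 CPM, with summed levels of 17.3 to 21.9 and 20.0 to 21.8 CPM, and JCHAIN (listed as IGJ) was at 0 in 5 libraries. The exceptions were PAX5, at 5.97 to 15.6 CPM, and PRDM1, at 3.83 to 11.1 CPM. Of 10 erythroid and megakaryocyte markers, 7 were at 0 in all libraries, including the globins HBA1, HBB and HBG1. T and NK cell markers summed to 20.6 to 49.4 CPM with the PRMT5 hairpin and 18.1 to 39.8 CPM with the scrambled one, with CD2 and CD3E at 0. Nearly all of those sums came from NKG7, at 18.1 to 49.0 CPM. Epithelial and stromal markers summed to 83.1 to 94.8 and 72.0 to 102 CPM, with EPCAM at 0. In that list PECAM1 was at 20.6 to 74.5 CPM, KRT18 at 11.2 to 24.5 CPM and KRT8 at 3.88 to 27.6 CPM.

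None of the 10 genes differed between PRMT5 knockdown and control beyond the spread between libraries. With edgeR's quasi-likelihood test and Benjamini-Hochberg adjustment over all genes, 0 of the 10 were called, where the background was 0 of 13668 genes (0%). At an unadjusted p under 0.05 there were also 0 of 10, against 1.77% of all genes (0.571% higher and 1.2% lower in the knockdown). DESeq2 and limma-voom likewise called 0 of the 10. PRMT5, the targeted gene, was not called by edgeR either, so a missing call does not show that a gene was unchanged. By sign, 6 of the 10 were higher in the knockdown, against 49.9% of all genes, and 8 of 10 without the library labelled scrambled control 2, against 50.4%. The median log2 difference was 0.22 over the 10 genes and −0.00069 over all genes, and it was 0.11 for the 10 without the library labelled scrambled control 2. The estimates ran from −0.82 for DNAJB9 to 0.40 for XBP1, and all 10 intervals included 0.

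**Figure D1:**
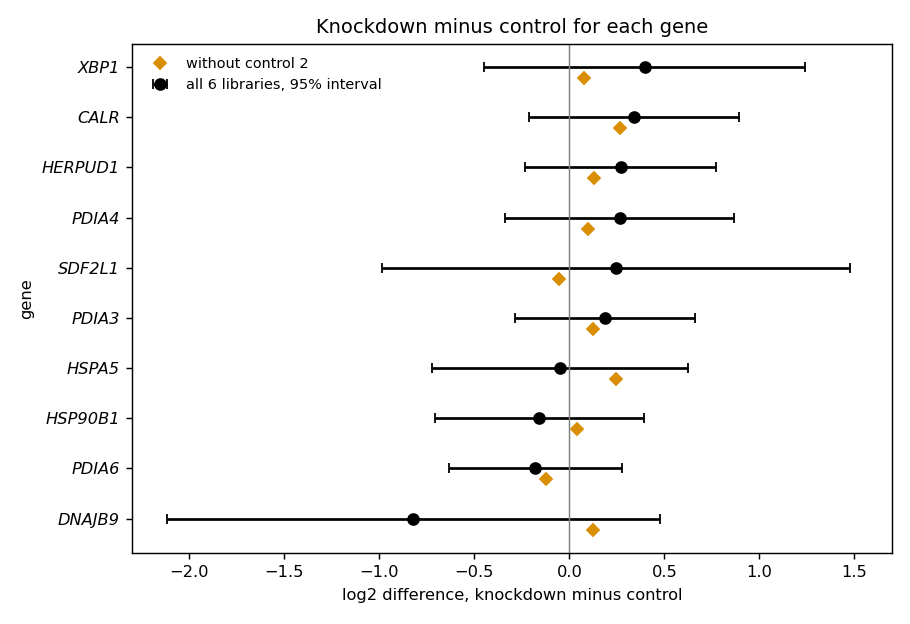
Log2 difference, knockdown minus control, for each gene from edgeR, with its 95% interval over all 6 libraries (black) and the estimate without the library labelled scrambled control 2 (orange). All intervals cross 0, and the orange points, from −0.12 for PDIA6 to 0.27 for CALR, lie in a narrower band than the black ones, from −0.82 to 0.40.

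Levels are compared between genes as CPM per kilobase of transcript. Calreticulin (CALR) was highest, at a mean of 824 CPM per kb (range over 6 libraries 648 to 1055). HSP90B1 followed at 288, XBP1 at 217, HSPA5 at 119 and PDIA6 at 115 CPM per kb. PDIA3, PDIA4, HERPUD1, SDF2L1 and DNAJB9 had 63.3, 42.7, 28.9, 20.8 and 8.14 CPM per kb. CALR lay above HSP90B1, PDIA6 above PDIA3 and PDIA3 above PDIA4 with no overlap of their ranges. The place of PDIA3 is that of its own row, at 199 to 284 CPM. Its near-identical copy PDIA3P may share reads with it, and the rows summed to 356 to 502 CPM. The order of PDIA3 against PDIA6 and HSPA5 is therefore uncertain. HSPA5 and PDIA6 could not be ordered: HSPA5 was the higher in 2 of 6 libraries. HSP90B1 was above XBP1 in all 6 libraries although their ranges overlapped, XBP1 was above HSPA5 in 5 of 6, and HERPUD1 was above SDF2L1 in 4 of 6. Lengths are those of the longest protein-coding GENCODE v29 transcript of each symbol, so an error in the expressed isoform would shift a gene's place.

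**Figure D2:**
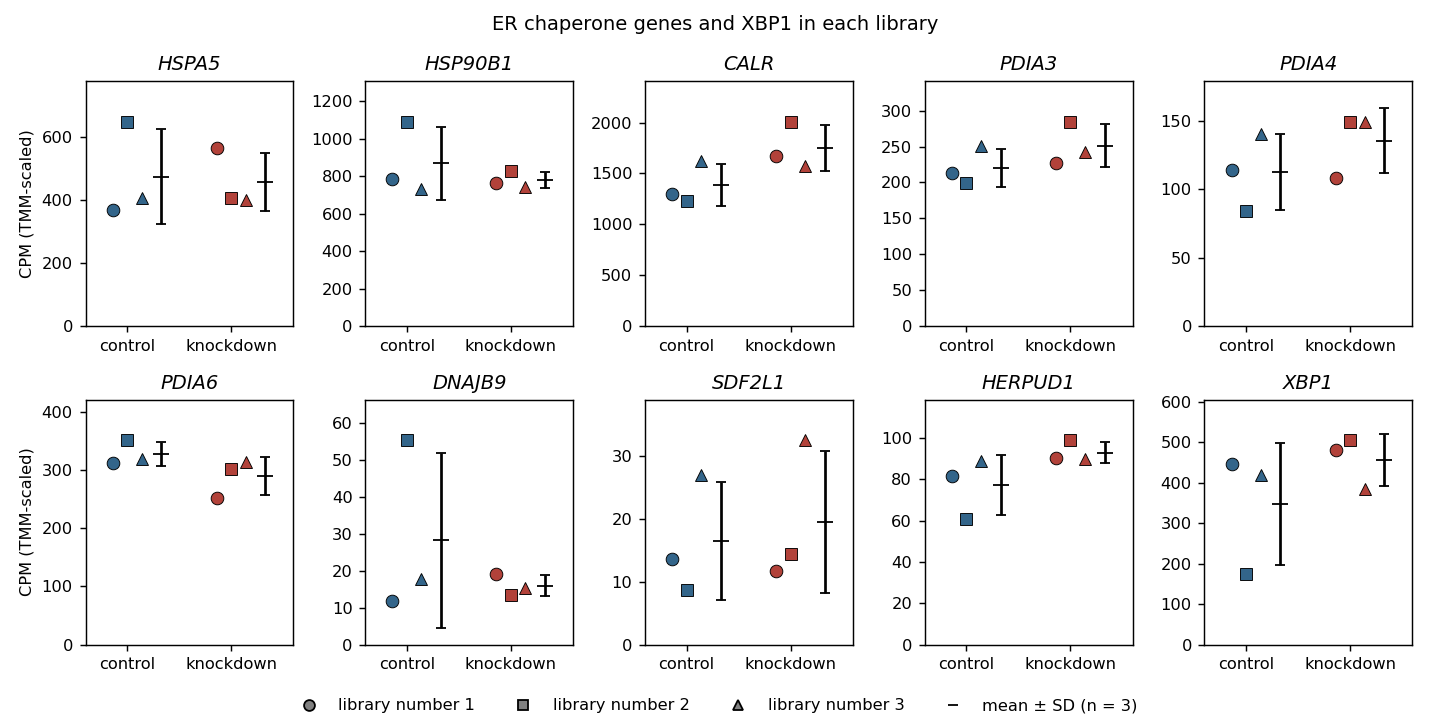
TMM-scaled CPM of each gene in each library, controls in blue and knockdowns in red, with the library number as the symbol and the mean ± SD (n = 3) beside each group; every axis starts at 0. The blue square, the library labelled scrambled control 2, lies outside the other 5 libraries in all 10 panels, highest for DNAJB9 at 55.4 CPM and lowest for XBP1 at 175 CPM.

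XBP1, the transcription factor of the IRE1 branch, was at 480, 504 and 384 CPM in knockdown 1, 2 and 3. In the libraries labelled scrambled control 1, 2 and 3 it was at 447, 175 and 419 CPM. Knockdown 3 lay below controls 1 and 3, so the groups overlapped, and the library labelled scrambled control 2 stood far below all others. Group means were 456 ± 63.5 CPM and 347 ± 150 CPM (SD, n = 3 each), a log2 difference of 0.40 (SE 0.36, 95% interval −0.45 to 1.24; edgeR adjusted p = 0.926). The difference was 0.08 without the library labelled scrambled control 2. The other 5 libraries agree within 1.31-fold, from 384 to 504 CPM.

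HSPA5, also called BiP or GRP78, is the HSP70 chaperone of the ER and the gauge of its folding load. It was at 565, 406 and 401 CPM with the PRMT5 hairpin and at 369, 648 and 405 CPM with the scrambled one. One library of each group was high, knockdown 1 and the library labelled scrambled control 2, and the other 4 lay between 369 and 406 CPM. The group means, 457 ± 93.1 and 474 ± 152 CPM (SD, n = 3 each), gave a log2 difference of −0.05 (SE 0.29, 95% interval −0.72 to 0.62; edgeR adjusted p = 0.979). Its sign was positive when the library labelled scrambled control 2 was left out (0.24), and also without knockdown 2 (0.030) or knockdown 3 (0.034), and it was −0.24 without knockdown 1. Between libraries with the same number HSPA5 differed by 0.61, −0.67 and −0.01 on the log2 scale in numbers 1, 2 and 3.

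HSP90B1, or GRP94, is the HSP90 of the ER and folds integrins and Toll-like receptors. It was at 763, 828 and 745 CPM with the PRMT5 hairpin and at 785, 1091 and 731 CPM with the scrambled one. Apart from the library labelled scrambled control 2, which was highest, all libraries lay within 1.13-fold of each other, the tightest of the 10 genes. Its log2 difference was −0.16 (SE 0.24; edgeR adjusted p = 0.926) and 0.042 without the library labelled scrambled control 2. A processed copy with a row of its own, HSP90B3P on chromosome 1, held 42.2 to 60.6 CPM, and how reads of such copies were divided is not stated in the labels.

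CALR encodes calreticulin, the lectin chaperone that binds monoglucosylated glycoproteins and calcium. It was at 1669, 2007 and 1577 CPM with the PRMT5 hairpin and at 1297, 1234 and 1621 CPM with the scrambled one. Control 3 lay above knockdown 3, and the remaining controls lay below every knockdown library. The means of 1751 ± 227 and 1384 ± 208 CPM (SD, n = 3 each) differed by 0.34 on the log2 scale (SE 0.24, 95% interval −0.21 to 0.89; edgeR adjusted p = 0.926). As a ratio this is 1.27-fold with an interval of 0.862 to 1.86. CALR was the gene whose estimate depended least on the library labelled scrambled control 2 among those over 0.2, at 0.27 without it, but libraries numbered 3 differed by only −0.04.

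The protein disulfide isomerases form and reshuffle disulfide bonds in the lumen. PDIA3 (ERp57), the partner of calreticulin, was at 227, 284 and 243 CPM with the PRMT5 hairpin and at 213, 199 and 250 CPM with the scrambled one. PDIA4 (ERp72) was at 108, 149 and 149 CPM against 114, 84.1 and 140 CPM. PDIA6 (P5) was at 252, 301 and 313 CPM against 312, 351 and 318 CPM. All 3 overlapped between groups: PDIA3 and PDIA4 were lowest and PDIA6 highest in the library labelled scrambled control 2. The log2 differences were 0.19 (SE 0.20) for PDIA3, 0.26 (SE 0.26) for PDIA4 and −0.18 (SE 0.19) for PDIA6, each with an edgeR adjusted p of 0.926, and without that library 0.12, 0.10 and −0.12. PDIA6 was the one gene of the 10 that was lower in the knockdown both with and without it. PDIA3 carries a caveat, because a near-identical row on chromosome 1, PDIA3P, held 157 to 217 CPM. With both rows summed, the values were 399, 502 and 432 CPM with the PRMT5 hairpin and 376, 356 and 445 CPM with the scrambled one, which overlap as PDIA3 alone did.

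DNAJB9 and SDF2L1 encode partners of HSPA5: DNAJB9 (ERdj4) is a J-domain protein that also brings HSPA5 to IRE1, and SDF2L1 works with another J-domain protein of the lumen. DNAJB9 was at 19.0, 13.5 and 15.4 CPM with the PRMT5 hairpin and at 11.7, 55.4 and 17.7 CPM with the scrambled one. The control range enclosed every knockdown library. Its log2 difference of −0.82 (SE 0.55, 95% interval −2.12 to 0.47; edgeR adjusted p = 0.926) was the largest in size of the 10, and without the library labelled scrambled control 2 it turned to 0.12. Without control 1 it was −1.19, the one setting in which any of the 10 genes had an unadjusted p under 0.05, and the smallest edgeR adjusted p over all genes there was 0.928. The neighbouring gene THAP5 had its lowest value, 12.8 CPM, in the library labelled scrambled control 2, where DNAJB9 was highest.

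SDF2L1 was high in both libraries numbered 3. It was at 11.6, 14.4 and 32.5 CPM with the PRMT5 hairpin and at 13.7, 8.75 and 26.9 CPM with the scrambled one. Both libraries numbered 3 lay above the other 4, a pattern seen in 18.7% of all genes tested. The log2 difference between groups was 0.24 (SE 0.53, 95% interval −0.99 to 1.48; edgeR adjusted p = 0.938). The sign turned when the library labelled scrambled control 2 was left out (−0.06) or knockdown 3 was (−0.34), and the value was 0.80 without control 3.

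HERPUD1, a membrane protein that assembles the ubiquitin ligase of ER-associated degradation, was the one gene of the 10 whose groups did not overlap. It was at 90.4, 99.0 and 89.7 CPM with the PRMT5 hairpin and at 81.7, 60.9 and 88.9 CPM with the scrambled one. Knockdown 3 lay barely above control 3, so the separation is narrow, and a gap in this direction was seen in 3.14% of all genes (6.24% in either direction). The means of 93.0 ± 5.16 and 77.2 ± 14.5 CPM (SD, n = 3 each) differed by 0.27 on the log2 scale (SE 0.22, 95% interval −0.23 to 0.77; edgeR adjusted p = 0.926). Without the library labelled scrambled control 2 the log2 difference was 0.13.

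A single library stood apart for every one of these genes, and it did not move them in 1 direction. It did not hold the largest deviation from the gene's mean in each case. That lay in knockdown 2 for CALR (0.38) and PDIA3 (0.28), in knockdown 1 for PDIA6 (−0.28) and in knockdown 3 for SDF2L1 (1.01). The library labelled scrambled control 2 was outside the range of the other 5 libraries for 10 of 10 genes, and for 71.1% of all genes tested. It was the lowest library for 6 of 10, XBP1, SDF2L1, PDIA4, HERPUD1, CALR and PDIA3, as for 36.7% of all genes. It was the highest for the other 4, DNAJB9, HSPA5, HSP90B1 and PDIA6, as for 34.4% of all genes. Against the mean of controls 1 and 3, its log2 CPM differed by −1.31 for XBP1 and −1.12 for SDF2L1, and 15.2% of all genes were at least 1 log2 unit lower there. DNAJB9 differed by 1.94, a 3.83-fold higher level, and 15.1% of all genes were at least 1 log2 unit higher. HSPA5 and HSP90B1 differed by 0.74 and 0.53, and PDIA4 and HERPUD1 by −0.58 and −0.48. Genes with an ERSE fell on both sides, HSPA5, HSP90B1 and PDIA6 being highest there and CALR and XBP1 lowest. The comparison is of single libraries and has no replicate check.

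**Figure D3:**
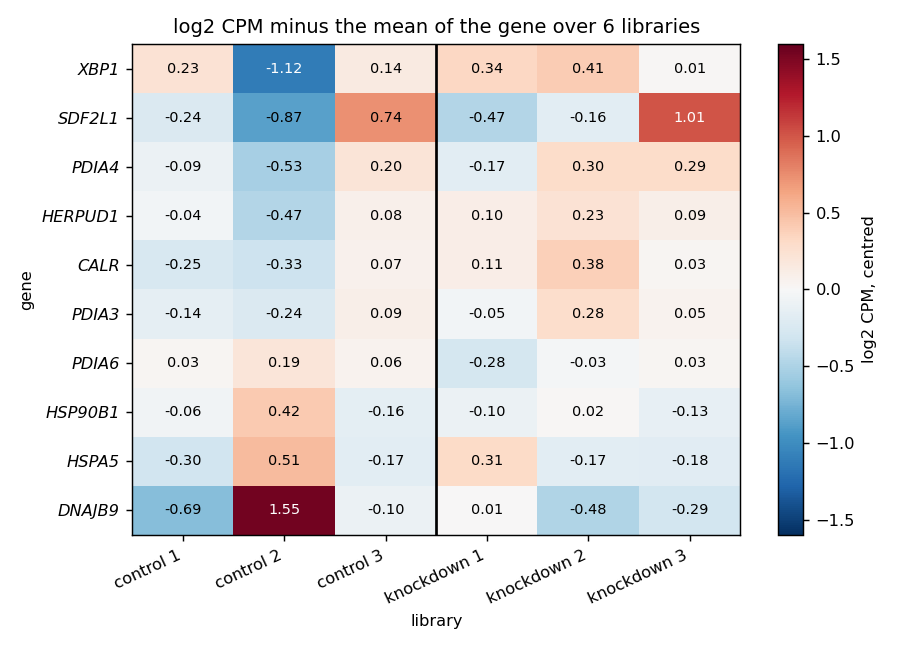
Log2 CPM of each gene in each library minus the mean of that gene over the 6 libraries (red higher, blue lower), genes ordered by their value in the library labelled scrambled control 2. The second column holds the largest deviations of XBP1, at −1.12, and DNAJB9, at 1.55, while SDF2L1 is highest in both libraries numbered 3, at 0.74 and 1.01.

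Between libraries with the same number the 10 genes differed least in number 3, which held the largest difference of PRMT5. There the knockdown library held 2.99-fold less PRMT5 (log2 difference −1.58), and the 10 genes differed by −0.20 to 0.27 with a median of −0.02. Differences no larger than the widest of these were found for 84.6% of all genes in that pair. In number 1, PRMT5 differed by −0.36 and the 10 genes by −0.31 to 0.70 (median 0.10). For number 2, which contains the library labelled scrambled control 2, PRMT5 differed by 0.43 and the 10 genes by −2.03 for DNAJB9 to 1.53 for XBP1 (median 0.61). The median size of the difference over all genes was 0.29, 0.60 and 0.10 in numbers 1, 2 and 3, and over the 10 genes it was 0.19, 0.70 and 0.04.

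**Figure D4:**
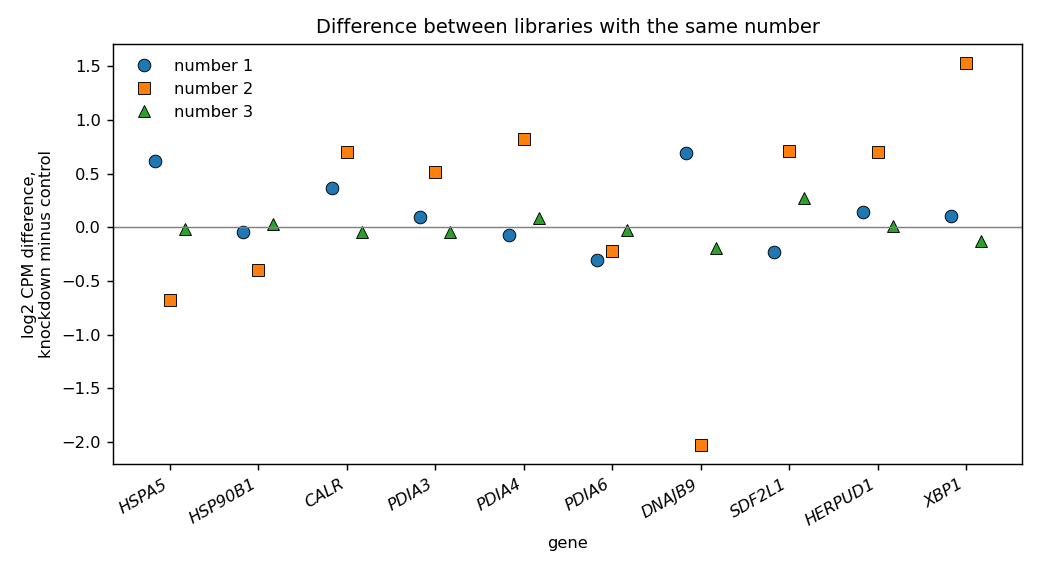
Log2 CPM difference, knockdown minus control, between the libraries with the same number, for each gene (1 library against 1, no error). The triangles of number 3 stay between −0.20 and 0.27, while the squares of number 2 reach −2.03 for DNAJB9 and 1.53 for XBP1.

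The rest of the pathway was read from gene lists, and in no list did a gene pass the adjusted test. The counts of higher genes below stand against 49.9% of all genes, and 50.4% without the library labelled scrambled control 2. Other folding factors of the ER lumen were higher in the knockdown for 12 of 26 tested genes, with a median log2 difference of −0.02 and of 0.07 without the library labelled scrambled control 2. HYOU1, the nucleotide exchange factor of HSPA5 and also a carrier of the ERSE-II consensus, was the 1 gene of the list with an unadjusted p under 0.05, against a background of 1.77%. HYOU1 was at 291, 181 and 141 CPM with the PRMT5 hairpin and at 125, 86.6 and 145 CPM with the scrambled one (log2 difference 0.78, SE 0.33; edgeR adjusted p = 0.926; 0.60 without the library labelled scrambled control 2), and its knockdown 3 value lay below control 3. DNAJC10, a J-domain disulfide reductase, HSPA13 and TXNDC5, a disulfide isomerase, had log2 differences of 0.79, 0.58 and 0.41, all with an adjusted p of 0.926 in edgeR, and 0.49, 0.44 and 0.27 without the library labelled scrambled control 2. Calnexin (CANX), the membrane counterpart of calreticulin, had −0.18 and, without that library, −0.20. P4HB, the founding disulfide isomerase, had −0.04 and turned to 0.14 without it. CANX and P4HB differed between libraries numbered 3 by −0.04 and 0.02.

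Genes of ER-associated degradation, the list HERPUD1 belongs to by function, were higher for 15 of 23 (median log2 difference 0.01, and 0.01 without the library labelled scrambled control 2). SYVN1, the ubiquitin ligase that HERPUD1 binds, was at 36.1, 38.6 and 38.2 CPM with the PRMT5 hairpin and at 33.6, 91.4 and 36.9 CPM with the scrambled one, the high value again being that of the library labelled scrambled control 2. DERL3, a channel component, had the same shape, at 27.9 CPM in that library and 3.19 to 8.08 CPM in the other 5. SYVN1 had a log2 difference of −0.52 and DERL3 of −1.12, and without that library they had 0.10 and −0.03. Groups did not overlap for 1 gene higher and 2 lower in the knockdown, where 3.14% and 3.1% of all genes did not. EDEM2, a mannosidase-like factor, was the higher one (log2 difference 0.32, and 0.23 without the library labelled scrambled control 2). NGLY1, the cytosolic glycanase, and DERL2, a channel component like DERL3, were the lower ones (−0.47 and −0.29, and −0.32 and −0.18 without it). All 3 had an edgeR adjusted p of 0.926.

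Translocon and ER entry genes were higher for 19 of 31 (median log2 difference 0.06, and 0.02 without the library labelled scrambled control 2). Groups did not overlap for 1 gene higher and 3 lower in the knockdown, where 3.14% and 3.1% of all genes did not. SEC61A1 was the higher one (0.11, and 0.13 without that library). DAD1, OSTC and SSR3 were the lower ones (−0.24, −0.24 and −0.18, and −0.26, −0.21 and −0.11 without it). SEC63, SRPRB and RPN2, which act in translocation, targeting and N-glycosylation, had 0.39, 0.65 and 0.48, and SSR2 had −0.32. Without the library labelled scrambled control 2 these came to 0.26, 0.28, 0.17 and −0.26. ER to Golgi transport genes leaned the other way, 6 of 24 higher against 49.9% of all genes (median −0.23). Without the library labelled scrambled control 2 it was again 6 of 24, against 50.4% (median −0.08). That library was the highest of 6 for 15 of the 24, against 34.4% of all genes. In libraries numbered 3 the median difference of the list was 0.01. SEC23A, a subunit of the COPII coat, was at 44.7, 51.03 and 66.9 CPM with the PRMT5 hairpin and at 67.6, 117 and 71.5 CPM with the scrambled one and did not overlap (log2 difference −0.66, and −0.36 without the library labelled scrambled control 2; edgeR adjusted p = 0.926). BET1, a membrane fusion protein of this route, was the other gene of the list without overlap, also lower (−0.08, and −0.09 without that library), against 3.1% of all genes in that direction. KDELR1, the receptor that returns KDEL-tagged chaperones such as HSPA5 to the ER, had −1.01 with all libraries and −0.17 without the library labelled scrambled control 2, where it was at 191 CPM against 44.8 to 61.7 CPM in the other 5. KDELR2 had −0.48 and −0.23.

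The sensors were measured at low to moderate levels. ATF6 was at 77.4, 85.3 and 85.6 CPM with the PRMT5 hairpin and at 71.0, 66.7 and 82.6 CPM with the scrambled one, with a log2 difference of 0.17 (SE 0.19). ERN1, which encodes IRE1, was at 16.9, 10.2 and 7.62 CPM against 9.305, 18.0 and 8.08 CPM, a log2 difference of −0.03 (SE 0.43), and EIF2AK3, which encodes PERK, had −0.25 (SE 0.37). Without the library labelled scrambled control 2 these were 0.11, 0.41 and 0.14. CREB3, an ER-bound factor of the ATF6 kind, did not overlap between groups and was lower, like 3.1% of all genes (log2 difference −0.70, and −0.39 without the library labelled scrambled control 2), and the list as a whole had 7 of 15 genes higher (median −0.02). Each of the sensor genes named had an edgeR adjusted p of 0.926 or, for ERN1, of 0.992.

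PERK shares its trigger with the ATF6 and XBP1 branches, but what moves the ATF4 genes in these cells was not tested. Genes of the PERK and ATF4 branch had larger estimates, 11 of 15 higher against 49.9% of all genes (median log2 difference 0.30). Without the library labelled scrambled control 2, 15 of 15 were higher, against 50.4% of all genes (median 0.80). PPP1R15A had the lowest estimate of the list, −1.51, which turned to 0.34 without that library. CHAC1, the glutathione-degrading enzyme, had 2.21, and ASNS, PSAT1 and STC2 had 1.15, 1.35 and 1.99, and none passed the adjusted test (edgeR adjusted p = 0.926). Without the library labelled scrambled control 2, CHAC1, ASNS, PSAT1 and STC2 had 1.69, 0.82, 0.92 and 1.55. CHAC1 was the 1 gene of the list with an unadjusted p under 0.05 in edgeR, against a background of 1.77% of all genes. In libraries numbered 3, CHAC1, ASNS, PSAT1 and STC2 differed by 0.25, −0.11, −0.12 and 0.03. ATF4 and DDIT3, the factors of the branch, reached 940 and 205 CPM, respectively, in the library labelled scrambled control 2, each the highest of the 6 libraries, and had log2 differences of −0.44 and −1.03 with it and 0.02 and 0.38 without it. Chaperones outside the ER were higher for 8 of 11 (median 0.16, and −0.0050 without the library labelled scrambled control 2). HSPA8, the cytosolic HSP70, was at 909, 1398 and 1877 CPM with the PRMT5 hairpin and at 976, 533 and 2044 CPM with the scrambled one, a log2 difference of 0.24 that turned to −0.11 without the library labelled scrambled control 2. HSP90AB1, of the cytosol, had 0.16 and turned to −0.02, and the mitochondrial HSPA9 had 0.59 and then 0.26. In the library labelled scrambled control 2, 8 of the 11 genes were lowest, HSPA8, HSP90AB1 and HSPA9 among them, and 3 were highest, including the stress-inducible HSPA1A (146 CPM) and HSPA1B (190 CPM).

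**Figure D5:**
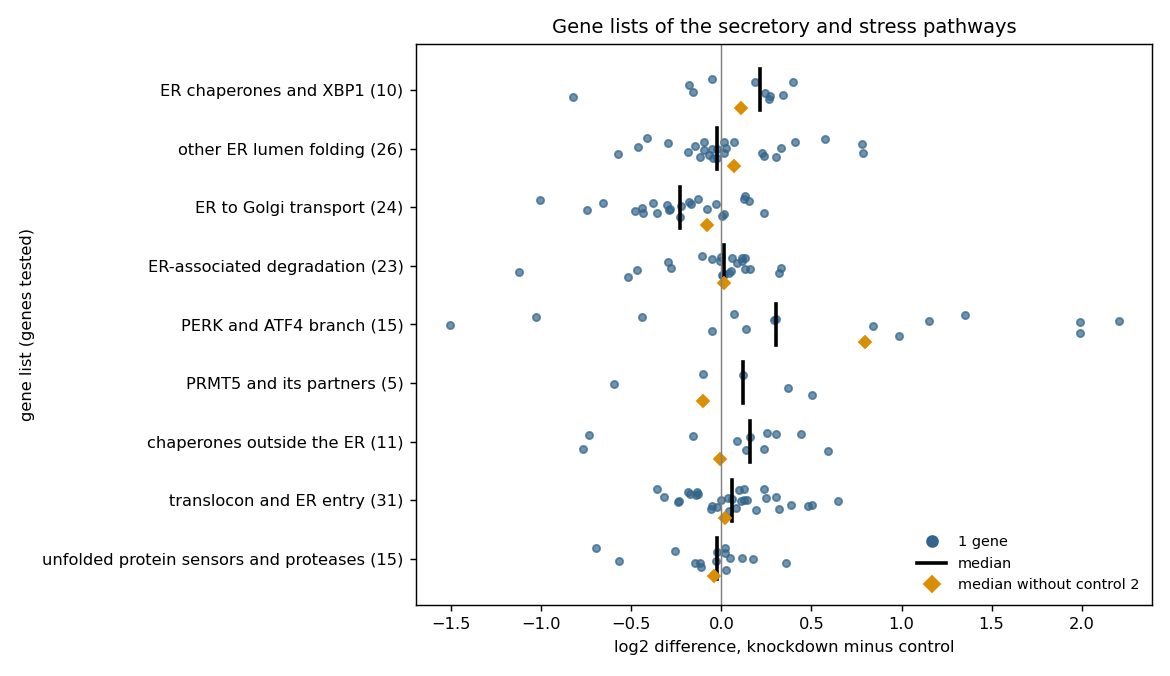
Log2 difference, knockdown minus control, of every tested gene in each list (points), with the list's median over all libraries (bar) and without the library labelled scrambled control 2 (diamond). The bar of the ER chaperones and XBP1 lies at 0.22, that of ER to Golgi transport at −0.23 and that of the PERK and ATF4 branch at 0.30, and the diamonds lie at 0.11, −0.08 and 0.80.

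Genes outside the set that carry the same promoter elements were read in the same fit. Of the 20 other genes with an ERSE match, 10 were tested, 1 higher and 9 lower in the knockdown (median log2 difference −0.20, 0 called), and 2 higher and 8 lower without the library labelled scrambled control 2 (median −0.11). Of all genes, 49.9% were higher with that library and 50.4% without it. SERP1, EIF2A and TMEM120A were lower without overlap between groups, as 3.1% of all genes were. EIF2A and TMEM120A had −0.44 and −0.85, and −0.11 and −0.30 without that library. SERP1 and CANX, which act at the translocon and in glycoprotein folding, had −0.19 and −0.18, CRELD2, a lumenal factor, had −0.02, and FICD, which AMPylates HSPA5, had 0.43. Without that library SERP1, CANX, CRELD2 and FICD had −0.12, −0.20, 0.10 and 0.29. Of the 5 members with an ERSE, CALR and XBP1 were higher and HSPA5, HSP90B1 and PDIA6 lower. For the ERSE-II, 9 of 17 other genes were tested, 4 higher and 5 lower (median −0.01, 0 called) with the library labelled scrambled control 2 and again 4 and 5 without it (median −0.01), beside 0.24 for SDF2L1 and 0.27 for HERPUD1. Among the ERSE-II genes, CAMTA1 was higher without overlap (0.14, and 0.09 without that library), as 3.14% of all genes were.

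Likeness to single members was measured as the root mean square difference of centred log2 CPM over the 6 libraries, among 11006 other genes averaging at least 5 CPM. HSPA5 was most closely followed by CCDC9, ATXN2 and PTDSS2 (0.047, 0.057 and 0.058, where the median gene had 0.448), and XBP1 by FEZ2, ZFP62 and RPN2 (0.042, 0.064 and 0.071, where the median gene had 0.566). Both likenesses rest largely on the library labelled scrambled control 2, which holds the largest deviation of each of these genes. RPN2, a subunit of the oligosaccharyltransferase, was like XBP1 lowest in the library labelled scrambled control 2.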

How the data were processed

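Each library's deposited table gives estimated counts per gene without depth scaling. CASAVA 1.9, TopHat2 version 2, edgeR and hg19 appear in the submitters' processing notes, which assign them no role. Counting tool, annotation and strand handling: not given in the sources used here, so copies and overlapping genes can share reads. Of the deposited values, 40.3% to 42.3% were whole, and 99.996% to 100% were whole after multiplying by 51. The cause of these steps was not tested, and values were rounded to whole numbers. Totals were 16408484 to 19077106 counts per library. Without molecular identifiers, reads may include copies of one molecule.

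Genes kept by filterByExpr (minimum count 10) entered edgeR 4.0.16 (R 4.3.3) with TMM scaling, glmQLFit and glmQLFTest, group as the only term, two-sided, Benjamini-Hochberg adjustment over 13668 genes, threshold 0.05. Differences are knockdown minus control. The prior count for log2 CPM was 2. With 3 libraries a group, the smallest exact permutation p is 0.1, and no such test was run. No set test was run. The scripts were tested on simulated data.

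The members and the gene lists were chosen with earlier results of these data known. Named genes were the 10 members, PRMT5, up to 4 genes per list with the smallest p and a mean of at least 5 CPM, defining pathway genes, and the nearest profiles. Genes named for their promoter element, and those named because their groups did not overlap, were chosen after their values were seen. The copies PDIA3P and HSP90B3P and the neighbour THAP5 were looked up by name. RIOK1, WDR77 and CLNS1A, and the near-identical HSPA1A and HSPA1B with HSPA4, were also named by the rule and are not described singly in full. The nearest profiles to the mean over the 10 genes are not given, since opposite deviations cancel in that mean.

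Titles number both groups 1 to 3. Deviations from the group means correlated at 0.127, 0.394 and 0.566 across genes for same-numbered libraries, each over 0.1, and at −0.581 to 0.164 for different numbers. Same-numbered libraries were treated as pairs in an alternative fit. The value for number 1, 0.127, lay below the 0.164 of knockdown 2 with control 1, so these correlations do not single out that pair. No label states a pairing by number. The remaining alternatives changed the scaling (RLE, upper quartile, totals), the low-count filter (2 others) or the tool (DESeq2 1.42.0, limma-voom 3.58.1), or left out each library or both libraries numbered 2.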

Additional observations from a re-analysis of the deposited data

How the results depend on the processing

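None of the 10 genes was called in the main fit or under any of the 15 alternatives, and 0 genes overall were called in each (242 at an unadjusted p under 0.05 in edgeR, 461 in DESeq2 and 117 in limma-voom). With the replicate number as a block, 0 genes were called, the smallest adjusted p over all genes was 0.709, the median log2 difference of the 10 genes was 0.22, and the block changed no call. Leaving out 1 library at a time gave log2 differences of −0.24 to 0.24 for HSPA5, −0.27 to 0.042 for HSP90B1, −1.19 to 0.12 for DNAJB9 and −0.34 to 0.80 for SDF2L1; for PRMT5 they were −0.94 to −0.29, for the median of the 10 genes 0.11 to 0.34, and for the number of them that were higher 6 to 8. Under total counts HSPA5 was at 0.020, with the median of all genes at 0.04. Without both libraries numbered 2, HSPA5 was at 0.32, DNAJB9 at 0.23 and XBP1 at −0.0033, and the median of the 10 genes was 0.048. The cause of these turns was not tested. CALR, PDIA3, PDIA4, HERPUD1 and PDIA6 kept their sign under all alternatives, but without both libraries numbered 2 PDIA3 was at 0.019, PDIA4 at 0.017, HERPUD1 at 0.077 and CALR at 0.15. The 95% interval of the log2 difference was narrowest for PDIA6 (−0.63 to 0.27) and widest for DNAJB9 (−2.12 to 0.47), so the size of change left undetermined with 3 libraries a group differed between genes.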
